A study of Mus musculus with 6 samples.

Results

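B and plasma cell genes were followed in the groin (inguinal) fat pad of mice, a subcutaneous white depot, with 30 genes chosen by symbol: receptor components, surface markers, transcription factors, immunoglobulin genes and genes of antibody-secreting cells. All 30 had 1 row each among the 25894 gene identifiers of the table. The table holds RNA sequencing of 6 female C57BL/6N mice with an age of 15 weeks in the submitters' design text, taken here as 1 library per mouse, all collected after 10 h of fasting. In the SF 8w-SR 2w group, 3 mice had their sleep fragmented for 8 weeks and were left to recover for 2 weeks; they are called fragmented 1 to 3 here. The other 3 mice are labelled as controls, with no further description of their housing, and are called control 1 to 3. The comparison asks whether transcripts of B lymphocytes and plasma cells in fat still differed from controls after the recovery sleep.

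The values are read counts divided by 1 factor per library, called normalised values here, and they correspond to between 15610201 and 19703569 reads per library. Adipocyte markers were abundant in all libraries, with Adipoq, which encodes adiponectin, between 17886 and 46595. The summed values of 8 adipocyte genes were lowest in control 2, at 135566, and control 3, at 168403, and ran from 265217 to 534811 in the other libraries. The dissected depot also held other tissue: summed values of 6 skeletal muscle genes ran from 566 in control 3 to 74934 in fragmented 1, and those of 10 epithelial genes from 8226 in control 2 and 9964 in control 3 to 35421 in control 1, with 24112 or more in every fragmented mouse. RNA of a whole piece of tissue does not separate fewer cells of a type from less RNA per cell.

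B lymphocytes recognise antigen through membrane immunoglobulin, which signals through the CD79A and CD79B chains, and they mature in follicles of lymph nodes and spleen. After activation some become plasma cells, which lose most B cell surface proteins and turn their protein synthesis to secreted antibody, with the J chain joining the units of polymeric IgM and IgA. Fat holds few B cells outside small lymphoid clusters, while the groin fat pad of the mouse encloses a lymph node and, in females, mammary gland in which IgA-secreting plasma cells can lodge.

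The promoters of members that were high and low in the same libraries are shown with that of Sdc1, which did not follow them. RefSeq windows (build GRCm38.p6) of 250 bases before to 50 after the start were found for 19 of the 30 genes. Capitals mark matches, on either strand, to 3 sequences: TGCAAAT, the core of the octamer to which the OCT factors and their coactivator OCA-B bind, CAGGTG, one E-box form of which the B lineage factor E2A is among the binders, and CCCNNGGG, the core of the EBF1 site.
Cd79a, chr7:24897247-24897546, plus strand: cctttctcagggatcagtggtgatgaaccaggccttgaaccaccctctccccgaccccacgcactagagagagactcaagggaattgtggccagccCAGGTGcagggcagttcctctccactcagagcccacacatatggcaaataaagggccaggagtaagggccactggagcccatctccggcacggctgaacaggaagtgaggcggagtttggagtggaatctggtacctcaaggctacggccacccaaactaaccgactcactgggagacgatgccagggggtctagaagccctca
Cd22, chr7:30878979-30879278, minus strand: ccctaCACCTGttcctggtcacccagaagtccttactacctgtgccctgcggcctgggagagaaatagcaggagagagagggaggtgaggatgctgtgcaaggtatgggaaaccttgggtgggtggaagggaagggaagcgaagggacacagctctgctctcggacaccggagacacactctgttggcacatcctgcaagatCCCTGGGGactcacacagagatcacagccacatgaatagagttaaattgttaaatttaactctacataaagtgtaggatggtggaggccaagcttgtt
Pou2af1, chr9:51213440-51213739, plus strand: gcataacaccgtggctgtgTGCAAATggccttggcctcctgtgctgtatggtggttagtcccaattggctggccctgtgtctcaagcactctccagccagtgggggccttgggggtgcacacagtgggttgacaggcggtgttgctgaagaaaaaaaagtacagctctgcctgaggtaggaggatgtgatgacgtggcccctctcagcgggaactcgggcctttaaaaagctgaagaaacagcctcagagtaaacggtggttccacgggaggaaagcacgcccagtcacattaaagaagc
Vpreb3, chr10:75948050-75948349, plus strand: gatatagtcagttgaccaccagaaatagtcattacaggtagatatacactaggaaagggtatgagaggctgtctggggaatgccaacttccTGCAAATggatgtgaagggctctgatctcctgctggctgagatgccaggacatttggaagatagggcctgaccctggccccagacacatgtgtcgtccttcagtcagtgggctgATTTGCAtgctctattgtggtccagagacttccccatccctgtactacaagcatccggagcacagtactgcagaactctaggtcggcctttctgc
Sdc1, chr12:8771146-8771445, plus strand: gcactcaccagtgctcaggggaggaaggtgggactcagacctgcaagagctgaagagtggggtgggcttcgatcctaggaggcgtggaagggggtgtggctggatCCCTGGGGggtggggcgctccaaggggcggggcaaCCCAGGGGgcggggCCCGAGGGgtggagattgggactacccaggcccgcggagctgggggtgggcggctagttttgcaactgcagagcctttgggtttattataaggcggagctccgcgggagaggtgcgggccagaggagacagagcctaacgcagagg
In Vpreb3 the octamer core began 159 and 45 bases upstream of the start, in Pou2af1 231 bases upstream, and in Cd79a the E-box began 154 bases upstream. The octamer core was found in 4 of the 19 genes (Blnk, Pou2af1, Spib and Vpreb3), against 4.02% of all 32851 windows of the same length. The E-box was found in 11 of the 19, against 20.2% of all windows, and the EBF1 core in 4 (Bank1, Cd22, Sdc1 and Spib), against 13.7%. Sdc1, the member that differed least between libraries, held 3 matches to the EBF1 core. These are matches of letters, and binding was not measured.

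B and plasma cell genes differed widely between mice of the same group, and the groups overlapped. In 29 of the 30 members the 3 highest libraries were fragmented 2, control 2 and control 3, and Sdc1 was the exception. Over all 22290 genes tested, 10.8% had these same 3 libraries highest. Control 2 was the highest library for 25 members, fragmented 2 for 4 and fragmented 3 for 1, while the lowest library was fragmented 3 for 13 members, control 1 for 9 and fragmented 1 for 8. Of the 20 members above 3 reads in every library, 7 differed by more than 100-fold between the highest and the lowest library and 12 by between 10-fold and 100-fold, with a median of 53.4-fold. Another 7 members were at 0 in at least 1 library, and against a floor of 3 reads their highest library was at least 101-fold (Vpreb3) to at least 1233-fold (Pax5) above it. These ranges were taken over all 6 libraries, not within a group. Within the fragmented group, fragmented 2 was above each other mouse in 29 members. All member reads together made up 0.623% of the reads of control 2 (95% Wilson interval 0.620 to 0.627), 0.310% of fragmented 2 (0.307 to 0.312) and 0.167% of control 3 (0.165 to 0.169). They made up 0.0245% of fragmented 1, 0.0180% of fragmented 3 and 0.0183% of control 1. Intervals cover counting error only.

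**Figure D1:**
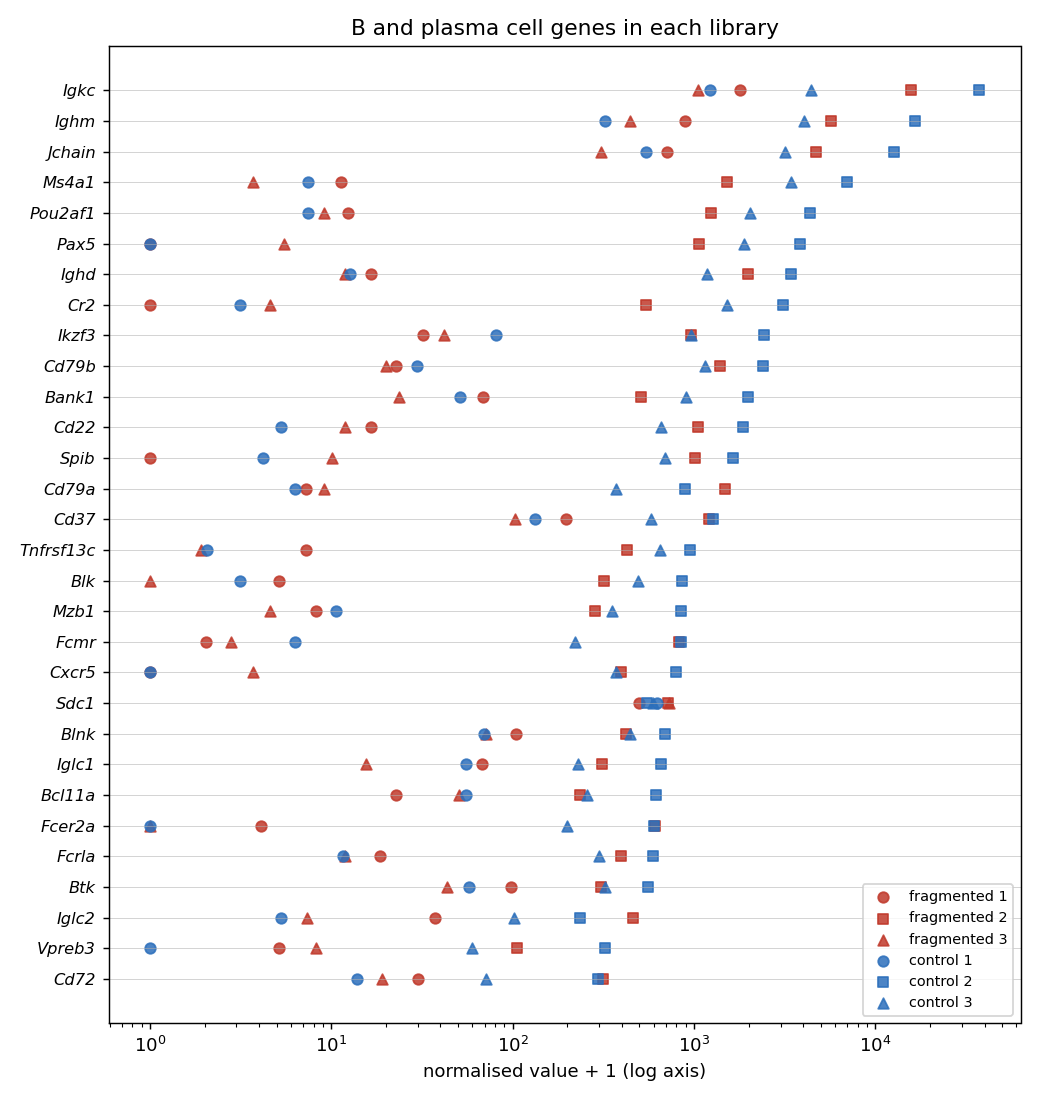
Normalised values plus 1 of the 30 members (log axis) in each of the 6 libraries, fragmented in red and control in blue. The squares of fragmented 2 and control 2 and the triangle of control 3 lie to the right of the other libraries for every member but Sdc1.

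The signalling chains of the B cell receptor showed this pattern plainly. Cd79a, which encodes the alpha chain, had normalised values of 6.22, 1474 and 8.13 in fragmented 1, 2 and 3 and 5.33, 895 and 370 in controls 1, 2 and 3. Cd79b, the beta chain, had 21.8, 1383 and 19.0 in the fragmented mice and 28.8, 2386 and 1150 in the controls. Both chains were thus low in fragmented 1, fragmented 3 and control 1 alike, and the groups overlapped. Ighm, the constant region of IgM, had 888, 5698 and 442 in the fragmented mice and 323, 16520 and 4020 in the controls. Ighd, the constant region of IgD carried by naive follicular B cells, had 15.6, 1978 and 10.8 in the fragmented mice and 11.7, 3431 and 1179 in the controls. The IgM gene was therefore well above 0 in every library, whereas the IgD gene was not. Ighd made up 25.8% of Ighd and Ighm reads in fragmented 2, 17.2% in control 2 and 22.7% in control 3, and 1.72% in fragmented 1, 2.39% in fragmented 3 and 3.50% in control 1 (Wilson interval in control 1, from 314 reads, 1.97 to 6.16).

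Genes of surface molecules and other genes of mature B cells were high in the same libraries as the receptor chains. Ms4a1, which encodes CD20, had 10.4, 1519 and 2.71 in the fragmented mice and 6.39, 6983 and 3417 in the controls, the value of 2.71 being 3 reads. Cr2, the complement receptor of B cells and follicular dendritic cells, had 0, 540 and 3.61 in the fragmented mice and 2.13, 3105 and 1522 in the controls. Fcer2a, the low-affinity IgE receptor CD23 of follicular B cells, had 3.11, 608 and 0 in the fragmented mice and 0, 599 and 197 in the controls. These 3 genes were close to or at 0 in fragmented 1, fragmented 3 and control 1. Cxcr5, the receptor that brings B cells into follicles, had 0, 395 and 2.71 in the fragmented mice and 0, 790 and 369 in the controls. Vpreb3, a gene of precursor and mature B cells whose product assists assembly of the receptor, had 4.15, 105 and 7.22 in the fragmented mice and 0, 323 and 59.0 in the controls. Cd22 (an inhibitory co-receptor), Tnfrsf13c (the receptor for the survival factor BAFF), Fcmr (the Fc receptor for IgM), Fcrla (an Fc receptor-like protein of B cells) and Blk (a Src family kinase) had between 218 and 1870 in fragmented 2, control 2 and control 3. In the other 3 libraries none of these 5 genes exceeded 17.6.

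The transcription factors of the B lineage were high in the same 3 libraries, in an order that differed between genes. Pax5, which fixes B cell identity and is switched off in plasma cells, had 0, 1066 and 4.51 in the fragmented mice and 0, 3835 and 1889 in the controls. Pou2af1, which encodes OCA-B, had 11.4, 1245 and 8.13 in the fragmented mice and 6.39, 4372 and 2039 in the controls. Spib, an ETS factor of B cells and plasmacytoid dendritic cells, was at 0 in fragmented 1 and reached 1638 in control 2. Ikzf3, the Ikaros family factor Aiolos, had 31.1, 960 and 40.6 in the fragmented mice and 79.9, 2416 and 961 in the controls. Bcl11a, a zinc finger factor that is not limited to B cells, had 21.8, 235 and 49.7 in the fragmented mice and 54.4, 617 and 256 in the controls. Pou2af1, Ikzf3 and Bcl11a were above 3 reads in every library, whereas Pax5 and Spib were not.

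Cd37, Blnk and Btk, which B cells share with other leukocytes, had the narrowest ranges between libraries after Sdc1. Cd37, a tetraspanin of leukocytes, had 197, 1211 and 102 in the fragmented mice and 131, 1266 and 577 in the controls. Blnk, an adaptor downstream of the receptor that macrophages also express, had 104, 423 and 70.4 in the fragmented mice and 68.2, 692 and 441 in the controls. Btk, the tyrosine kinase of B cells and myeloid cells, had 97.5, 306 and 42.4 in the fragmented mice and 56.5, 557 and 322 in the controls. Blnk spanned 10.1-fold, Cd37 12.4-fold and Btk 13.1-fold, against a median of 53.4-fold over the 20 members above 3 reads in every library. Of the macrophage markers, 1 of 8 had fragmented 2, control 2 and control 3 highest, near the 10.8% of all genes tested. Their summed values ran from 8417 to 20722 in the fragmented mice and from 12798 to 23758 in the controls. Cd72, an inhibitory lectin of B cells, had 29.0, 316 and 18.1 in the fragmented mice and 12.8, 295 and 70.2 in the controls. Bank1, a scaffold of B cell receptor signalling, had 67.4, 507 and 22.6 in the fragmented mice and 50.1, 1974 and 907 in the controls.

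Genes of antibody secretion were above 3 reads in every library, at very different levels. Igkc, the kappa light chain constant region, had 1790, 15798 and 1049 in the fragmented mice and 1222, 37304 and 4402 in the controls. Jchain had 710, 4730 and 305 in the fragmented mice and 540, 12595 and 3167 in the controls. With Ighm, these genes were at 305 or more in every library, the lowest value being that of Jchain in fragmented 3. Mzb1, a chaperone of marginal zone B cells and plasma cells that helps immunoglobulin assembly, had 7.26, 284 and 3.61 in the fragmented mice and 9.59, 850 and 350 in the controls, the lowest value being 4 reads. Sdc1, the heparan sulphate proteoglycan syndecan-1 that marks plasma cells and is also made by epithelium, had 497, 715 and 726 in the fragmented mice and 628, 553 and 592 in the controls. Sdc1 therefore varied by only 1.46-fold, and its highest library, fragmented 3, was among the lowest for the other members. As RPKM, a level scaled to exon length and library reads, Igkc was the most abundant member in every library, from 119 in fragmented 3 to 3974 in control 2. Ighm came next in all libraries but control 1, where Jchain did, and in fragmented 3 Sdc1 stood above Jchain, at an RPKM of 11.5 against 7.29. The share of Jchain among Jchain, Cd79a and Cd79b reads was 96.2% in fragmented 1, 91.8% in fragmented 3 and 94.1% in control 1, and 62.3% in fragmented 2, 79.3% in control 2 and 67.6% in control 3.

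The lambda light chain genes were minor throughout. Iglc1 had 66.4, 309 and 14.4 in the fragmented mice and 54.4, 654 and 228 in the controls. Iglc2 had 36.3, 460 and 6.32 in the fragmented mice and 4.26, 233 and 100 in the controls, so that for this gene fragmented 2 was the highest library. Some lambda constant genes closely resemble each other, and counting can divide or drop reads between such copies, so the separate values of these genes are uncertain. Igkc took 94.4%, 93.4% and 98.0% of light chain constant reads in fragmented 1, 2 and 3 and 94.6%, 97.4% and 92.7% in controls 1, 2 and 3. The kappa share thus stayed within a few percentage points although the amount of light chain RNA differed many-fold.

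Between the groups, 0 of the 30 members passed the test, as 0% of all 22290 genes did (limma on log2 of the normalised value plus 1, Benjamini-Hochberg adjusted p under 0.05). The log2 difference, fragmented minus control, was below 0 for 28 members and above 0 for 2, with a median of -1.76 over the 30 members against 0.02 over all genes tested. Its standard error was between 0.25 and 3.18 on the log2 scale, and the adjusted p by limma was between 0.697 and 0.999 for every member. Before adjustment, 0 members were higher at a p under 0.05, against 3.24% of all genes, and 0 lower, against 2.14%. In 0 members did all fragmented mice lie above all controls, against 5.02% of all genes, and in 0 below, against 3.58%. edgeR and DESeq2 on recovered reads each gave 0 members and 0% of all genes at an adjusted p under 0.05. Before adjustment, edgeR gave 0 members at a p under 0.05 in either direction, against 1.88% of all genes higher and 2.69% lower. DESeq2 likewise gave 0, against 2.05% higher and 3.57% lower. limma-voom with quality weights gave 0 members and 0% of all genes after adjustment. Before adjustment it gave 7 lower members, against 10.4% of all genes, and 0 higher, against 13.6%, with a median log2 difference of -3.13 over the members.

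**Figure D2:**
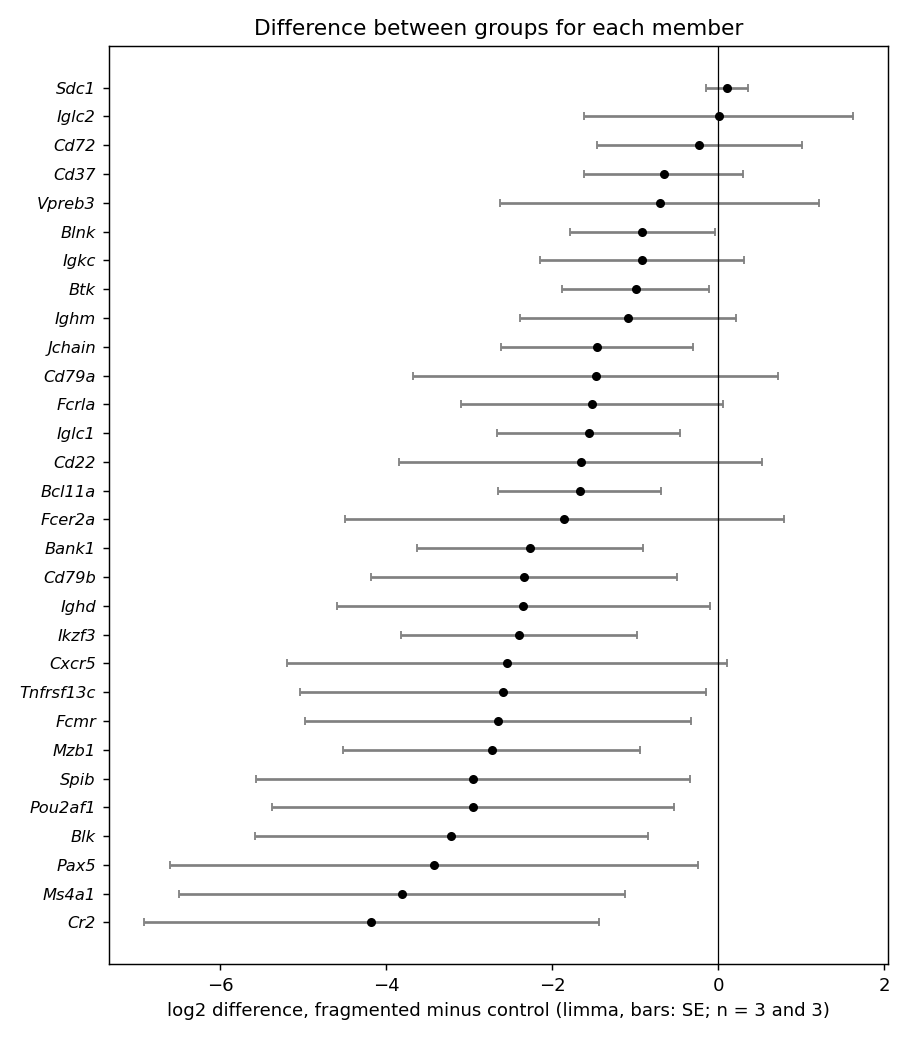
Log2 difference of each member, fragmented minus control, with its standard error from limma (3 mice per group). Of the 30 points, 28 lie below 0, and no member had an adjusted p under 0.697.

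Single members show how wide these errors were. Cr2 had the most negative log2 difference, -4.18 (SE 2.74, adjusted p by limma 0.700). Ms4a1 had -3.81 (SE 2.68) and Cd79a -1.48 (SE 2.19). Igkc had -0.92 (SE 1.23), Ighm -1.09 (SE 1.31), Jchain -1.46 (SE 1.16) and Sdc1 0.11 (SE 0.25). The smallest p-values among the members belonged to Bcl11a at -1.67 (SE 0.98), Ikzf3 at -2.40 (SE 1.42) and Bank1 at -2.27 (SE 1.37), each with an adjusted p by limma of 0.697. The median over the members depended on single mice. It was -3.85 without fragmented 2, -3.82 without control 1, -0.73 without control 2, -0.79 without fragmented 3 and -0.96 without fragmented 1. Without control 1, 3.79% of all genes passed an adjusted p under 0.05 by limma and 0 members did, with a smallest member adjusted p of 0.0901. Before adjustment, 21 of the 30 members were lower at a p under 0.05 without that mouse, against 11.4% of all genes, and 0 were higher, against 13.0%. The members' median was 0.23 without fragmented 1 and control 2, the libraries highest in muscle genes.

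Some markers of other lymphoid tissue were high in the same libraries as the members, and others were not. Glycam1, a mucin-like ligand made by the high endothelial venules of lymph nodes, had 0, 5484 and 0 in the fragmented mice and 0, 1968 and 402 in the controls. Chst4, the sulphotransferase of the same vessels, had 0, 91.8 and 0 in the fragmented mice and 0, 71.2 and 8.91 in the controls. Cxcl13, the chemokine that attracts CXCR5-bearing B cells into follicles, had 591, 467 and 19.0 in the fragmented mice and 18.1, 2356 and 1424 in the controls. Glycam1 and Chst4 were thus listed at 0 in exactly the libraries in which Cr2, Fcer2a and Pax5 were at or near 0, while Cxcl13 was not low in fragmented 1. Of the 8 stroma genes, Glycam1 and Chst4 were the 2 with fragmented 2, control 2 and control 3 highest, against 10.8% of all genes tested. Madcam1, an adhesion molecule of mucosal venules, had 30.1, 34.1 and 16.3 in the fragmented mice and 45.8, 49.7 and 72.4 in the controls. Clca3a1, a gene of lymphatic endothelium, had 107, 145 and 302 in the fragmented mice and 233, 269 and 131 in the controls. Neither gene followed the members. Tnfsf11, the cytokine RANKL, ran from 4.51 in fragmented 3 to 113 in control 2, Ccl21a did not exceed 13.7 in any library, and Ccl19 was at 0 in all libraries but fragmented 2. The summed stroma values were 757, 6281 and 341 in the fragmented mice and 317, 4835 and 2054 in the controls. Of 18 T and NK cell genes, 12 had the same 3 libraries highest, against 10.8% of all genes tested. Their summed values were 893, 9043 and 842 in the fragmented mice and 1368, 8636 and 2723 in the controls. With the stroma score of each library as a covariate, the members' median log2 difference was -0.98, 0 members passed by limma, and 10 were lower at an unadjusted p under 0.05, against 2.45% of all genes, while 0 were higher, against 3.40%. This score averages all 8 stroma genes, of which only Glycam1 and Chst4 had the members' 3 libraries highest, so it is an uncertain measure of lymph node tissue. The 10 members shared the same 3 highest libraries and are not separate pieces of evidence. The part of lymph node tissue in the members' differences was not tested.

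**Figure D3:**
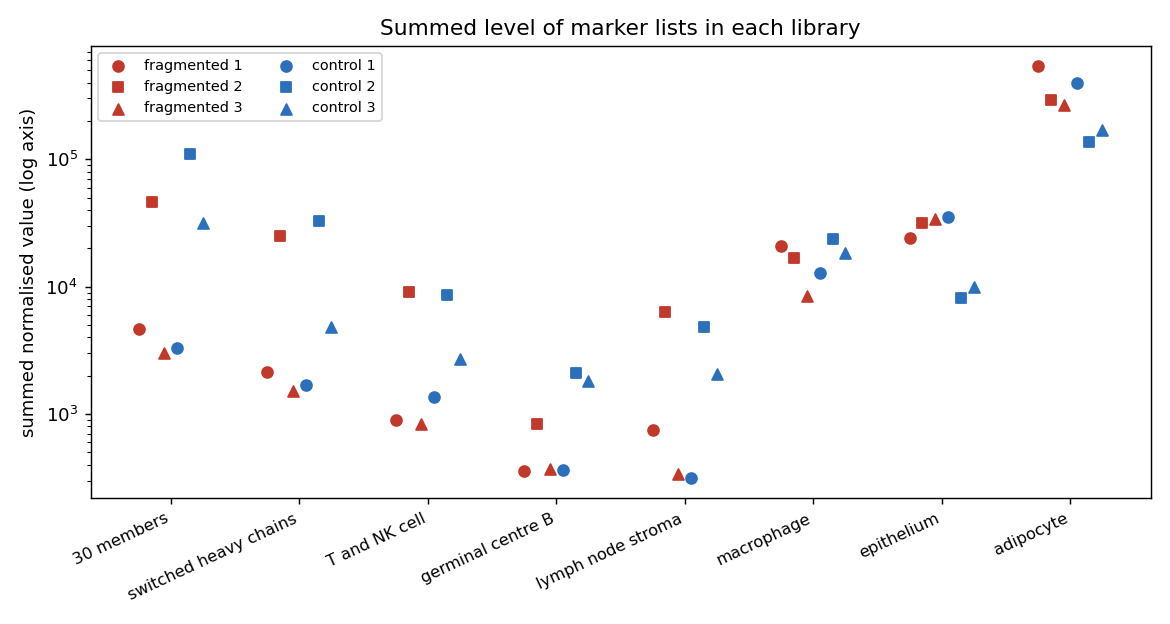
Summed normalised values (log axis) of the 30 members and of 7 marker lists in each library. Fragmented 2, control 2 and control 3 are highest for the members, the switched heavy chains, the T and NK cell, germinal centre and stroma lists, while the adipocyte list is highest in fragmented 1.

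Heavy chain genes outside the member list showed which antibody classes were transcribed. Igha, the constant region of IgA, had 1711, 12330 and 1221 in the fragmented mice and 1371, 3536 and 1497 in the controls, so it was above 1000 in every library. Ighg2c, an IgG subclass of C57BL/6 mice, had 348, 7897 and 196 in the fragmented mice and 234, 17238 and 1222 in the controls. Ighg2b had 75.7, 4230 and 87.6 in the fragmented mice and 65.0, 10119 and 1734 in the controls. Igha thus had the highest value in fragmented 2, whereas both IgG2 genes peaked in control 2. Ighg3 ran from 0 in fragmented 1 to 1312 in control 2, Ighg1 from 0 in fragmented 1 to 340 in control 2, and Ighe from 0 in 3 libraries to 33.4 in control 3. As a share of all heavy chain constant reads, Igha made up 56.3% in fragmented 1, 62.1% in fragmented 3 and 67.8% in control 1 (Wilson interval 65.7 to 69.9 in control 1). In fragmented 2 it made up 37.7% (37.2 to 38.2), in control 3 15.0% (14.3 to 15.7) and in control 2 6.73% (6.51 to 6.96). The 4 IgG genes together made up 55.2% in control 2, 38.8% in fragmented 2 and 32.6% in control 3, and between 14.0% and 15.6% in the other 3 libraries. None of the 6 switched heavy chain genes passed the test, with a median log2 difference of -2.16 and Igha the only gene above 0.

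**Figure D4:**
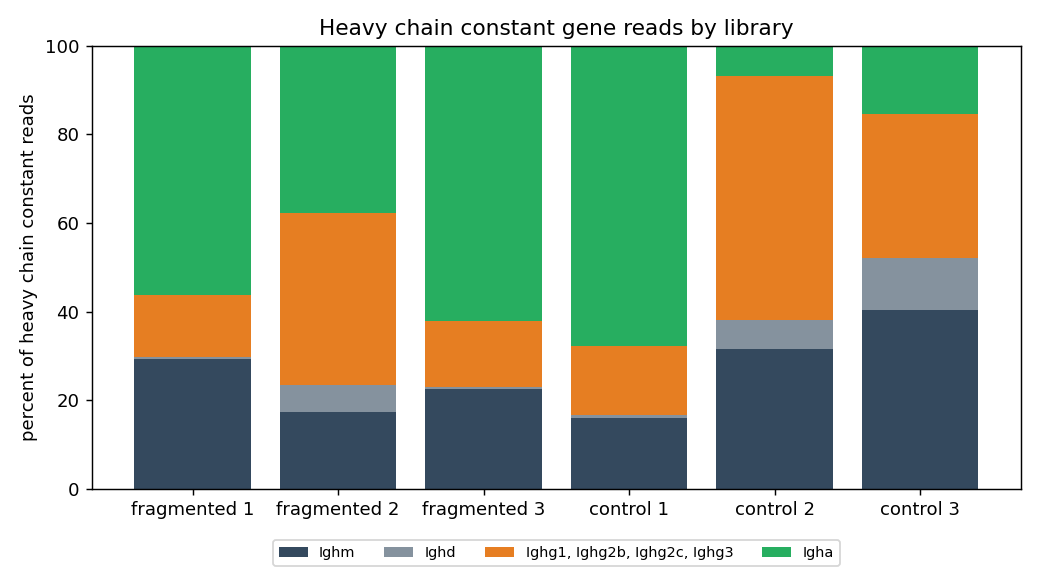
Shares of heavy chain constant reads by library, in percent, for Ighm, Ighd, the 4 IgG genes and Igha. Igha makes up 56.3% or more of the bar in fragmented 1, fragmented 3 and control 1, and 6.73% in control 2.

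Variable gene segments gave a view of the breadth of the antibodies made. Reads in 102 heavy chain variable segments numbered 457, 6715 and 246 in the fragmented mice and 170, 14232 and 1707 in the controls. At least 1 read fell in 48, 91 and 47 of these segments in the fragmented mice and in 37, 93 and 66 in the controls. When reads were reduced to the 170 of control 1, the expected number of segments was 39.3, 46.3 and 42.9 in the fragmented mice and 37.0, 43.3 and 48.0 in the controls, so most of the difference in breadth went with the number of reads. In control 2 the single segment Ighv1-82 took 27.4% of these reads (26.6 to 28.1), and its normalised value of 4403 compared with 206 in fragmented 2 and 126 in control 3. The most abundant segment of the other libraries took between 7.31% and 13.8%. Among 95 kappa variable segments, Igkv3-4 took 16.9% of reads in control 2 (16.3 to 17.6), with a value of 2370 against 128 in fragmented 2 and 53.5 in control 3. Variable segments resemble each other, and reads that carry mutations or match several segments may have been placed wrongly or dropped.

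The 3 libraries high in members differed among themselves. Control 2 exceeded fragmented 2 in 25 of the 30 members, with a median log2 difference of 1.04, and exceeded control 3 in 29. Cr2 was 5.75 times, Ms4a1 4.60 times and Bank1 3.89 times as high in control 2 as in fragmented 2, whereas Cd79a was 0.607 times and Iglc2 0.507 times as high. Control 3 likewise had 2.25 times as much Ms4a1 as fragmented 2 and 0.251 times as much Cd79a. The reads of Ms4a1 and Cd79a, both genes of mature B cells, were therefore nearly equal in fragmented 2, where Cd79a made up 49.3% of the pair, and unequal in control 2 at 11.4% and control 3 at 9.77%. Transcript GC content was 40.6% for Ms4a1, 41.4% for Cr2 and 39.0% for Bank1, against 54.9% for Cd79a and 48.2% for Iglc2. Jchain, with the lowest GC content at 38.2%, was 2.66 times and Mzb1, at 54.0%, 3.00 times as high in control 2 as in fragmented 2. Over the 30 members the Spearman rho of GC content with the log2 ratio of control 2 to fragmented 2 was -0.49, and with that of control 3 to fragmented 2 -0.43, as a description across genes that share their libraries. Over 22262 genes, each library's deviation from the gene mean had a rho with GC content of -0.27 in both control 2 and control 3 and between 0.13 and 0.37 in the other libraries. The part of GC content in the ratios between these libraries was not tested.

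**Figure D5:**
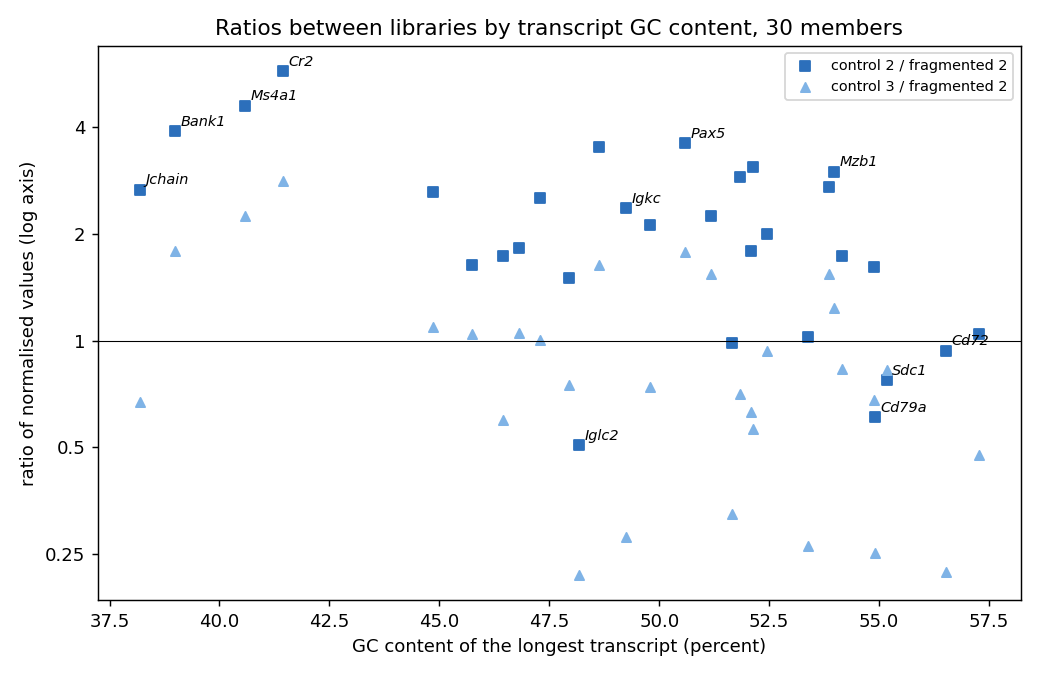
Ratio of the normalised value in control 2 (squares) or control 3 (triangles) to that in fragmented 2 (log axis) for each of the 30 members, against the GC content of its longest transcript. Bank1, Ms4a1 and Cr2, with the lowest GC content after Jchain, lie at ratios from 3.89 to 5.75 for control 2, and Cd79a at 0.607.

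Further genes of the pathway were read from lists of related genes. Of 16 receptor signalling genes, 15 had a log2 difference below 0 and 1 above, with a median of -0.70, and 0 passed the test. The most abundant of them, Cd81, had 6168, 4073 and 4240 in the fragmented mice and 4744, 2579 and 2723 in the controls, and Syk, the kinase that binds phosphorylated CD79 chains, had 536, 1635 and 474 against 466, 2870 and 1528. Cd81, a tetraspanin of many cell types, was the 1 gene of this list above 0 and was lowest in controls 2 and 3, while Syk followed the members. Of 12 B lineage transcription factors outside the member list, 11 were below 0 with a median of -0.37, and 0 passed. In 8 of these 12 the highest 3 libraries were fragmented 2, control 2 and control 3, against 10.8% of all genes tested. The most abundant of the 12 were Irf4 and Foxo1. Irf4, which directs plasma cell formation and is also expressed in adipocytes, had 2143, 1231 and 11504 in the fragmented mice and 2935, 4240 and 3284 in the controls, and did not follow the members. Foxo1, a forkhead factor of B cells and adipocytes, had 2148, 2056 and 3277 in the fragmented mice and 2178, 4103 and 3486 in the controls. Germinal centre genes had a median of -2.10 over 6 genes, all below 0 and 0 passing. S1pr2, a receptor that holds B cells in germinal centres, had 336, 437 and 325 in the fragmented mice and 329, 786 and 625 in the controls. Of 10 plasma cell genes outside the member list, 7 were below 0 with a median of -0.09 and 0 passing. Their most abundant genes, Xbp1 and Txndc5, are made by many secretory cells. Xbp1 had 6612, 3473 and 6081 in the fragmented mice and 4855, 5870 and 6042 in the controls, and Txndc5 ran only from 2175 to 2712 over the 6 libraries.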

How the data were processed

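CASAVA, HISAT2 2.0.5, featureCounts 1.5.0-p3 and the mouse build mm8 are listed in the submitters' processing notes; whether counting used strand is not given in the sources used here. The deposited table holds a signal value per gene and library. Its values are multiples of 1 number per library, taken here as the worth of 1 read, and 100% of them gave whole reads within 0.02. limma 3.58.1 (R 4.3.3) with an intensity trend was run on log2(value + 1) for 22290 genes with a mean of at least 1, all 30 members among them, with Benjamini-Hochberg adjustment over all of them and a threshold of 0.05. The plan foresaw normalised values or raw counts; this signal was treated as normalised values. edgeR 4.0.16, DESeq2 1.42.0 and limma-voom were run on recovered reads as alternatives, and limma was checked on simulated counts. Other alternatives covered pseudocounts, filters, scaling, the replicate block, a stroma score from 8 genes, GC content and length trends removed with splines of 4 degrees of freedom, and each mouse left out. Symbols came from a table of gene identifiers and names, which left 33 identifiers unmatched. RPKM used the union of exons, and GC content the longest transcript, of GENCODE M21 (GRCm38), a build other than mm8, so the coordinates printed are those of the RefSeq promoter windows, not of the features counted. Shares have 95% Wilson intervals. Labels give a group and a replicate number, and each library was taken as 1 mouse. The p-values set the difference between the groups against the spread between the libraries within them. The members and the lists were chosen with earlier results of these data known. Values in every library are given for members fixed by name, for the 3 with the smallest p-values and for those with the widest and narrowest range. From other B cell lists and the stroma list, the 2 most abundant genes are named, with the switched heavy chain genes; some genes that this rule names are not reported here. T and NK cell, macrophage, epithelial, adipocyte and muscle lists are given as sums, which departs from that rule. Cd72, Chst4, Madcam1, Clca3a1, Tnfsf11, Ccl21a, Ccl19, Rag2, Igll1 and Adipoq were given values after these were seen.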

Additional observations from a re-analysis of the deposited data

How the results depend on the processing

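With all 6 mice, 0 genes and 0 members passed an adjusted p under 0.05 under every pseudocount, filter, scaling and test run, with the stroma covariate and with GC content and length trends removed; DESeq2 gave 118 adjusted p-values as NA. With each mouse left out in turn, genes passing ran from 0 to 844, the 844 being without control 1, members passing stayed at 0, and the members' median ran from -3.85 to -0.73. Cd79a turned to 0.32 with edgeR and 0.23 with DESeq2, and Sdc1 to -0.19 with GC content and length trends removed. Without control 2, Ighm turned to 0.20 and Igkc to 0.42; over the mice left out in turn Ighm ran from -2.64 to 0.20 and Igkc from -2.09 to 0.42. Without fragmented 1 and control 2, a setting chosen after seeing the data, Cd79a turned to 1.26, Ighm to 0.48 and Igkc to 0.81, and 14 members changed sign. The cause of these turns was not tested. The same replicate numbers do not pair mice in the labels, and deviations of same-numbered mice correlated at 0.18, 0.39 and 0.04; fragmented 3 correlated more with control 1, at 0.21, than with control 3. With the replicate block, 0 genes and 0 members passed, and the members' median was -1.76, as without it. Before adjustment, 12 members had a p under 0.05 by limma in either direction, all of them lower, with 2676 of 22290 genes in either direction. Without the block these were 0 members and 1201 genes. Leaving out fragmented 2 gave 9 members at an unadjusted p under 0.05 by limma, all of them lower, with 792 of 22290 genes in either direction. With 3 mice per group, standard errors of members reached 3.18 on the log2 scale.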

Other observations

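Precursor genes were low, and 2 of the 5 tested had fragmented 2, control 2 and control 3 highest, against 10.8% of all genes tested. Rag1, a recombinase of developing lymphocytes, had normalised values of 0, 73.6 and 0 in the fragmented mice and 1.07, 255 and 16.7 in the controls. Dntt, the polymerase that adds bases at the joints, had 7.26, 22.8 and 0.903 in the fragmented mice and 0, 52.0 and 18.9 in the controls. Rag2, the partner of Rag1, was at 40.7 in control 2, 0.759 (1 read) in fragmented 2 and 0 elsewhere. Igll1, a surrogate light chain gene, was at 50.9 in control 2, 12.3 in control 3 and 0 elsewhere. Of the 5 precursor genes tested, all 5 had a log2 difference below 0, and 0 passed an adjusted p under 0.05 by limma.

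The most abundant homing and survival genes had a narrow range. Cxcl12, a chemokine of stromal and fat progenitor cells, had 5836, 4785 and 5709 in the fragmented mice and 4496, 7166 and 7797 in the controls, with the highest values in controls 2 and 3. S1pr1, the receptor by which lymphocytes leave lymph nodes and which endothelium also makes, had 3107, 2730 and 3135 in the fragmented mice and 2388, 3476 and 3495 in the controls. Of the 12 genes of this list, 11 were below 0 and 0 passed, with a median log2 difference of -1.13. Siglech, a receptor of plasmacytoid dendritic cells, which also express Spib, had 37.3, 295 and 23.5 in the fragmented mice and 54.4, 599 and 328 in the controls. Tcf4, a factor of these cells and of many others, had 2049, 2122 and 2902 in the fragmented mice and 2431, 4160 and 5046 in the controls. Of the 5 genes of this list, 3 had a log2 difference below 0, while Klk1 and Cox6a2 were above 0. Their median was -0.25, and 0 passed an adjusted p under 0.05 by limma. In 2 of the 5 the highest 3 libraries were fragmented 2, control 2 and control 3, against 10.8% of all genes tested.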
